A study of Bos indicus x Bos taurus with 17 samples.

Results

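The 10 genes described here encode the muscle-type acetylcholine receptor and the proteins that gather it under the motor nerve ending. The rule picks them by gene symbol and uses no measured value, but they were chosen with earlier results of these data known. They are 10 of the 21048 genes in the count tables. CHRNA1, CHRNB1, CHRND, CHRNG and CHRNE encode receptor subunits, and AGRN, LRP4, MUSK, DOK7 and RAPSN encode the agrin pathway and its scaffold. The samples were Bos indicus x Bos taurus F1 hybrid fetuses of about day 105, labelled healthy. Per the study's methods the crosses were of the Nelore and Holstein breeds. The ART-Normal group held 4 fetuses conceived by assisted reproduction. The study describes its ART-Normal fetuses as produced in vitro and not overgrown, but gives no weight for ART-Normal 4, which the labels call healthy. The Control-AI group held 2 fetuses conceived by artificial insemination, numbered 2 and 4 in the labels. Skeletal muscle and liver of each fetus were sequenced, so each tissue gave 6 libraries. The labels give a single poly(A)-selected, strand-specific protocol for all of them, whereas the study's methods take control RNA-seq from an earlier study. A difference in library protocol between Control-AI 2 or 4 and the ART-Normal fetuses therefore cannot be told apart from conception method, which touches every comparison of the groups below. The same 6 fetuses stand behind both tissues, and each group replicate is a different fetus.

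The neuromuscular junction is the synapse through which a motor nerve makes a muscle fibre contract. Its receptor is a ring of subunits that opens when acetylcholine binds. Fetal muscle builds the ring with the gamma subunit, encoded by CHRNG, and adult muscle replaces it with the epsilon subunit, encoded by CHRNE. Agrin, released by the nerve and also made by muscle, binds LRP4, which activates the muscle-specific kinase MUSK. DOK7 binds and activates MUSK from inside the fibre, and rapsyn, the product of RAPSN, ties the receptors into dense clusters.

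The muscle libraries held 12433300 to 23578362 counted reads and the liver libraries 18454088 to 43339598. Levels are given as CPM, the count divided by each library's total in units of 1e6 reads, after TMM scaling, which corrects for library composition, within each tissue. All 7 skeletal muscle marker genes in the tables (ACTA1, CKM, MYH3, MYH8, MYOD1, MYOG and TNNT3) were detected in every muscle library, with summed levels of 13502 to 22299 CPM. All 6 hepatocyte markers were detected in every liver library. Control-AI 2 stood apart in both tissues. On the first principal component it lay at -42.4 in muscle, where the other 5 libraries lay between 4.33 and 14.2, and at -43 in liver, where the others lay between 2.02 and 19.4. Its liver library held 175940 CPM of hepatocyte markers, against 19034 to 39387 CPM in the others. ALB (71505 CPM), SERPINA1 (56356 CPM), AFP (39470 CPM) and APOA2 (4964 CPM) were highest in it. APOA1 (1510 CPM) and TTR (2133 CPM) lay within the range of the other livers, so the markers were not raised as a class. It also held 19493 CPM of HBG, a fetal haemoglobin gene, against 1059 to 2278 CPM. That library also held 24.0 CPM of skeletal muscle markers, where the other livers held 1.79 to 4.79 CPM. Its muscle library held 221 CPM of hepatocyte markers, against 24.1 to 47.3 CPM in the other muscles, though APOA1 (17.8 CPM) lay within their range. Genes overlapped on the other strand by one whose level was 16-fold or more above theirs were also raised in it, with a median log2 ratio to the mean of the other libraries of 0.49 in muscle and 0.35 in liver, against -0.19 to -0.09 for each of the others. It is 1 of only 2 controls, and group differences are given below with and without it. Fewer muscle fibres or nerves in a sample and less RNA per fibre cannot be told apart in these bulk libraries.

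In muscle the fetal gamma subunit was the highest of the 10 genes per kb of gene span and the adult epsilon subunit the lowest. CHRNG lies on the plus strand of chromosome 2 (chr2:120180193-120185721, build ARS-UCD1.2) and CHRNE on the plus strand of chromosome 19 (chr19:26484698-26489336). CHRNG measured 390 CPM, 420 CPM, 387 CPM and 384 CPM in ART-Normal 1 to 4, against 569 CPM for Control-AI 2 and 239 CPM for Control-AI 4. The ART-Normal fetuses lay close together, with a coefficient of variation of 4.22%, and all of them lay between the 2 controls. CHRNE measured 0.505 CPM, 0.235 CPM, 0.410 CPM and 0.208 CPM in ART-Normal 1 to 4, against 0.794 CPM for Control-AI 2 and 0.721 CPM for Control-AI 4. These levels rest on 12, 4, 9 and 4 reads in the ART-Normal fetuses and on 10 and 17 in the controls. Both controls thus lay above all ART-Normal fetuses for CHRNE, as for 7.22% of the genes above the filter, at counts so low that the gene did not pass the filter of 5 CPM in every library of a group. Fitted without that filter, its log2 fold change in ART-Normal over Control-AI was -1.11 (SE 0.72) with an adjusted p of 0.717 in edgeR's quasi-likelihood test.

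The balance of gamma and epsilon was read within each library, where no scaling enters. CHRNG made up 99.9% of the CHRNG and CHRNE reads pooled over the 6 muscle libraries, 45085 reads against 56. The lowest share was 99.7% in Control-AI 4 (95% Wilson interval 99.5% to 99.8%) and the highest was 99.946% in ART-Normal 4 (99.861% to 99.979%). Such intervals cover counting error only. Per kb of gene span the level of CHRNG was 278 to 1548 times that of CHRNE. The log2 ratio of CHRNG to CHRNE reads, with 0.5 added to each count, was 9.53, 10.63, 9.80 and 10.68 in ART-Normal 1 to 4, 9.41 in Control-AI 2 and 8.33 in Control-AI 4. Every ART-Normal fetus had a higher ratio than either control, and the mean in ART-Normal was 10.16 ± 0.58 (SD, n = 4) against 8.87 in the controls. The difference of 1.29 gave p = 0.133 in a two-sided exact permutation test over the 15 ways to assign the 6 libraries, in which the smallest p possible is 0.0667. Without Control-AI 2 the difference was 1.83, and without Control-AI 4 it was 0.75. A difference in the gamma to epsilon balance between the groups was therefore not shown at this depth and number of fetuses.

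**Figure D1:**
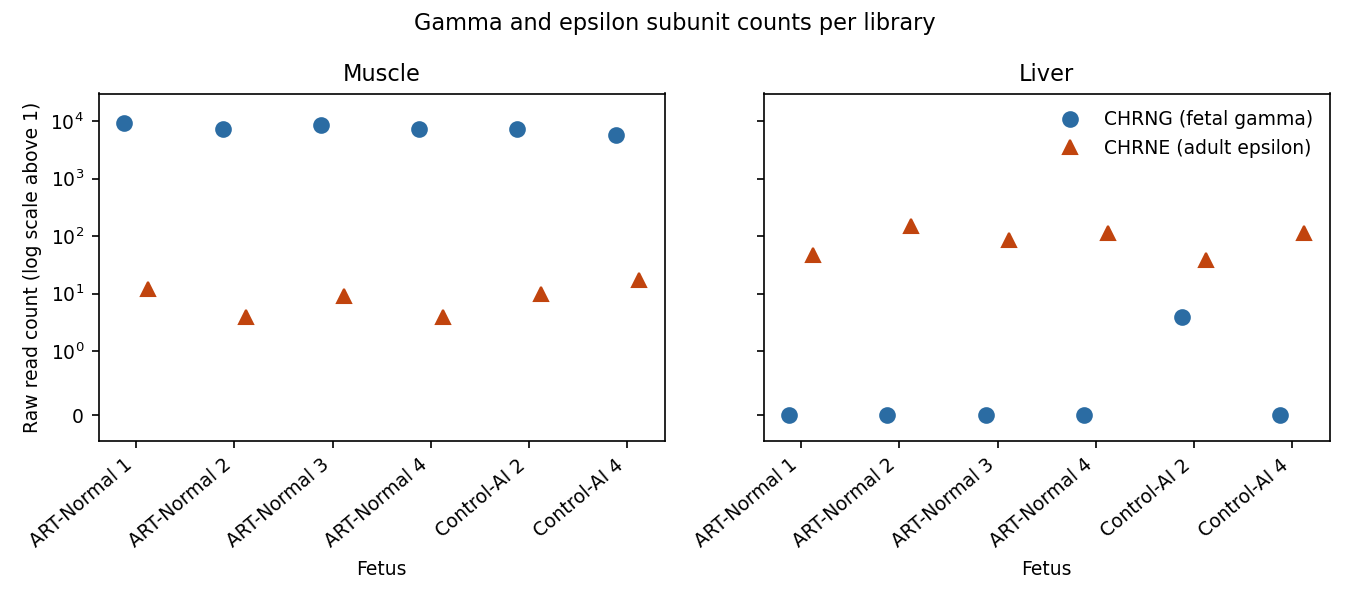
Raw read counts of CHRNG (circles) and CHRNE (triangles) in each fetus, muscle on the left and liver on the right, on an axis that is logarithmic above 1. In muscle CHRNG lies between 5625 and 9270 reads and CHRNE between 4 and 17, whereas in liver CHRNE lies between 38 and 147 reads and CHRNG is at 0 in 5 libraries and at 4 in Control-AI 2.

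The other 3 receptor subunits were all abundant in muscle. The alpha subunit, which carries most of the acetylcholine binding site, is encoded by CHRNA1 (chr2:22084351-22103937, plus strand). CHRNA1 measured 383 CPM, 429 CPM, 339 CPM and 369 CPM in ART-Normal 1 to 4, against 501 CPM for Control-AI 2 and 377 CPM for Control-AI 4. Control-AI 2 was highest, and Control-AI 4 lay within the ART-Normal range. The beta subunit gene CHRNB1 (chr19:27121898-27132200, plus strand) measured 91.5 CPM, 105 CPM, 82.0 CPM and 102 CPM in ART-Normal 1 to 4, against 126 CPM for Control-AI 2 and 104 CPM for Control-AI 4. Here too only Control-AI 2 lay above all ART-Normal fetuses. CHRNB1 overlaps ZBTB4 on the opposite strand by 420 bp, and ZBTB4 had 1201 to 1975 reads in muscle.

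The delta subunit gene CHRND (chr2:120166846-120174105, plus strand) lies 6087 bp from CHRNG on the same strand. CHRND measured 70.4 CPM, 60.8 CPM, 78.5 CPM and 64.7 CPM in ART-Normal 1 to 4, against 94.8 CPM for Control-AI 2 and 45.0 CPM for Control-AI 4. As for CHRNG, the controls were the highest and the lowest library. Control-AI 2 exceeded Control-AI 4 by 2.38 times for CHRNG and by 2.1 times for CHRND, against 1.33 times for CHRNA1 and 1.21 times for CHRNB1. The read ratio of CHRNG to CHRND stayed between 4.93 and 6.91 over the 6 libraries. The ratio of CHRNG to CHRNA1 lay between 0.980 and 1.14 in 5 libraries and at 0.633 in Control-AI 4. The ratio of CHRNG to CHRNB1 lay between 3.77 and 4.72 in those 5 libraries and at 2.29 in Control-AI 4. The lower gamma level of Control-AI 4 was thus shared by delta but not by alpha and beta, in 1 fetus, and no test applies to it.

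Among the pathway genes, the ligand and its receptor varied little between libraries. The coefficient of variation over the 6 muscle libraries was 9.75% for AGRN and 11.0% for LRP4, with RAPSN close at 12.3%. AGRN (chr16:51422630-51461933, minus strand) measured 177 CPM, 167 CPM, 177 CPM and 170 CPM in ART-Normal 1 to 4, against 209 CPM for Control-AI 2 and 159 CPM for Control-AI 4. The ART-Normal fetuses again lay between the controls. LRP4 (chr15:76787303-76840799, minus strand) measured 176 CPM, 164 CPM, 198 CPM and 206 CPM in ART-Normal 1 to 4, against 206 CPM for Control-AI 2 and 163 CPM for Control-AI 4. The read ratio of AGRN to LRP4 ranged from 0.827 to 1.02 over the 6 libraries. CHRND, CHRNG, LRP4 and AGRN were the members with all ART-Normal fetuses between the controls, 4 of the 9 above the filter, against 9.20% of all 11695 genes tested. That count was taken after the values were seen. For LRP4 it rests on 205.99 CPM in ART-Normal 4 against 206.01 CPM in Control-AI 2.

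The kinase and its activator varied more from fetus to fetus. MUSK (chr8:100188491-100287913, plus strand) measured 133 CPM, 180 CPM, 146 CPM and 107 CPM in ART-Normal 1 to 4, against 111 CPM for Control-AI 2 and 123 CPM for Control-AI 4. Both controls fell inside the ART-Normal range. DOK7 (chr6:115390107-115424826, minus strand) measured 45.4 CPM, 41.3 CPM, 77.1 CPM and 69.8 CPM in ART-Normal 1 to 4, against 53.0 CPM for Control-AI 2 and 39.7 CPM for Control-AI 4. ART-Normal 3 and 4 stood above the other 4 fetuses for DOK7. The read ratio of DOK7 to MUSK consequently ran from 0.229 in ART-Normal 2 to 0.650 in ART-Normal 4. RAPSN (chr15:77261077-77273516, minus strand) measured 120 CPM, 142 CPM, 154 CPM and 139 CPM in ART-Normal 1 to 4, against 162 CPM for Control-AI 2 and 120 CPM for Control-AI 4. For this scaffold gene only Control-AI 2 lay above all ART-Normal fetuses.

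**Figure D2:**
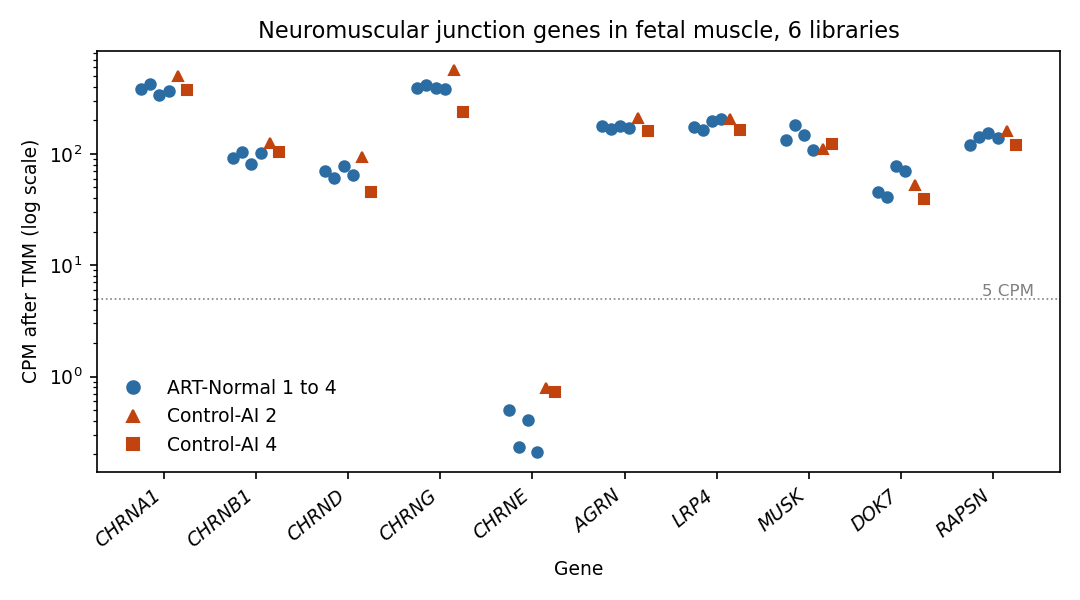
Level of each of the 10 genes in the 6 muscle libraries, in CPM after TMM scaling on a log axis, with ART-Normal fetuses as blue circles, Control-AI 2 as a triangle, Control-AI 4 as a square and the filter of 5 CPM as a dotted line. Of the 10 genes, CHRNE alone lies under the line, and for CHRNG and CHRND the 2 controls enclose the ART-Normal fetuses.

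Levels of different genes can be set side by side only per length. No exon lengths were used here, so levels were divided by the whole gene span, introns included, which lowers genes with long introns such as MUSK. On that scale CHRNG led in muscle with a median of 70.3 CPM per kb of span, followed by CHRNA1 with 19.4, and the ranges of these genes did not overlap. That lead rests on spans of 5529 bp for CHRNG and 19587 bp for CHRNA1. In reads the ratio of CHRNG to CHRNA1 was 0.633 to 1.14. RAPSN, CHRNB1 and CHRND followed at 11.3, 10.01 and 9.31 CPM per kb, and neighbours in that order overlapped. AGRN with 4.42 and LRP4 with 3.49 CPM per kb were each separate from their neighbours. DOK7 and MUSK, at 1.42 and 1.29 CPM per kb, overlapped, and CHRNE was last with 0.0987 CPM per kb.

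The comparison of ART-Normal with Control-AI in muscle asks whether conception by assisted reproduction went with a change in these transcripts. None of the 9 members above the filter passed an adjusted p of 0.05 in edgeR's quasi-likelihood test, and none had an unadjusted p under 0.05. The background over all 11695 genes was 0.00855% at the adjusted threshold and 9.19% at an unadjusted p under 0.05. The levels of the 2 groups overlapped for all 9 members, whereas 16.0% of all genes had groups that did not overlap. No member passed under the likelihood ratio test or DESeq2 either. The median log2 fold change of the 9 members was -0.02, beside 0.0007 over all genes.

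For CHRNG the log2 fold change was -0.03 (SE 0.27), with a 95% interval of -0.62 to 0.56 and an adjusted p of 0.988. The interval therefore leaves room for changes of either sign. Leaving out Control-AI 2 gave 0.71 (adjusted p = 0.5 in edgeR's test) and leaving out Control-AI 4 gave -0.51, so its sign was set by which control was kept. CHRND behaved likewise, with -0.02 (SE 0.24) over all 6 libraries, 0.59 without Control-AI 2 and -0.45 without Control-AI 4. CHRNB1 had the smallest p of the 9, with a log2 fold change of -0.28 (SE 0.14), a 95% interval of -0.59 to 0.04 and an adjusted p of 0.602 in edgeR's test. Leaving out Control-AI 2 gave -0.15, and leaving out Control-AI 4 gave -0.39. CHRNA1 gave -0.21 (SE 0.16) and an interval of -0.57 to 0.15, with -0.004 left without Control-AI 2 and -0.38 without Control-AI 4.

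DOK7 and MUSK had the largest positive estimates. DOK7 gave a log2 fold change of 0.34 (SE 0.26) with an interval of -0.23 to 0.91, and MUSK one of 0.27 (SE 0.19) with an interval of -0.14 to 0.69. Leaving out Control-AI 2 gave 0.54 for DOK7 and 0.19 for MUSK, and leaving out Control-AI 4 gave 0.16 and 0.37. RAPSN, LRP4 and AGRN gave -0.02 (SE 0.16), 0.01 (SE 0.15) and -0.09 (SE 0.14). The estimates of AGRN, RAPSN and LRP4 also changed sign when a control was left out. The value without Control-AI 2 was 0.10 for AGRN, 0.19 for RAPSN and 0.18 for LRP4, and the value without Control-AI 4 was -0.13 for LRP4. Each omission of a control leaves 1 control fetus, which is then assumed to vary like the ART-Normal fetuses.

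**Figure D3:**
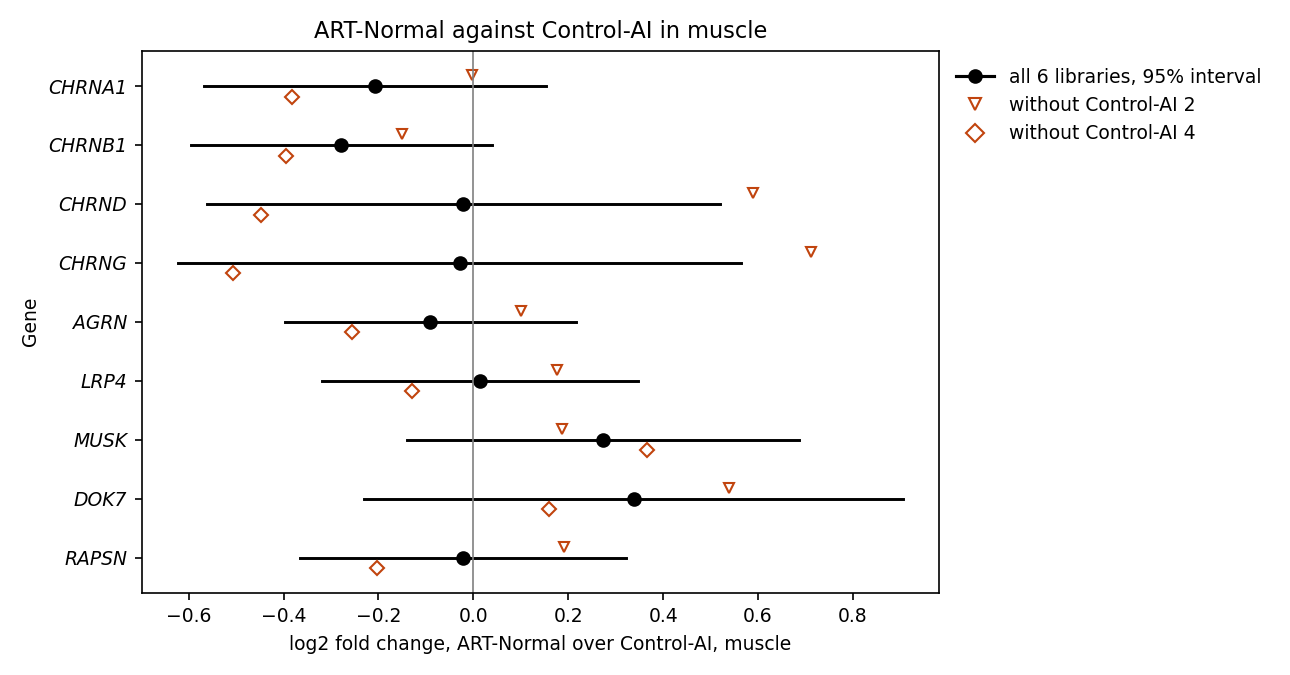
Log2 fold change of the 9 members above the filter in muscle, ART-Normal over Control-AI, with black points and lines for the estimate and 95% interval over all 6 libraries. Open triangles leave out Control-AI 2 and open diamonds leave out Control-AI 4. All 9 intervals cross 0, and for CHRNG the estimate moves from -0.51 to 0.71 with the control that is left out.

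Liver served as the contrast tissue, and the members fell into those nearly absent there and those present. CHRNG had 0 reads in 5 liver libraries and 4 in Control-AI 2, and MUSK had 0 reads in the 4 ART-Normal livers, 4 in Control-AI 2 and 1 in Control-AI 4. CHRNA1 had 7 reads in Control-AI 2, 1 in ART-Normal 4 and 0 in the others. CHRND had 2 reads in ART-Normal 1, 1 in Control-AI 2, 5 in Control-AI 4 and 0 in the other 3 libraries. RAPSN had 2 to 6 reads in 5 livers and 17 in Control-AI 2. Control-AI 2, the liver library with the highest level of skeletal muscle markers, thus had the most reads of CHRNG, MUSK, CHRNA1 and RAPSN, and the part of those markers in these counts was not tested.

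In the comparison of muscle with liver 80.0% of the 12923 genes tested passed the threshold, 39.9% as higher in muscle and 40.2% as lower. All 9 members in that fit passed as higher in muscle, but 7 of them (all but LRP4 and AGRN) were below the filter in liver and entered through muscle alone, so their number is no support for a lean. CHRNE, the member left out by the filter, differed the other way. Leaving out Control-AI 2 left every one of the 9 past the threshold. CHRNG, CHRNA1, MUSK and CHRND differed most. Counting the ART-Normal fetuses alone, CHRNG was at least 15053-fold higher and MUSK at least 5363-fold higher in muscle, taking 3 reads over the 4 livers as the floor for a count of 0. In the Control-AI fetuses CHRNG was 3120-fold and MUSK 841-fold higher, on 4 and 5 liver reads. The fitted log2 differences were 12.86 (SE 0.39) for CHRNA1, 10.09 (SE 0.40) for CHRND and 8.98 (SE 0.31) for RAPSN. Without Control-AI 2 they were 15.47, 9.62 and 9.56. Of the receptor subunits in that fit, CHRNB1 differed least. It had 2.65 to 5.50 CPM in every liver, and its log2 difference was 4.66 (SE 0.21, adjusted p = 2.32e-10 in edgeR's test). The liver levels rest on 65 to 150 reads a library. ZBTB4, which overlaps CHRNB1 on the opposite strand by 420 bp, had 486 to 1557 reads in liver. Its part in the CHRNB1 reads was not tested.

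The genes of the agrin pathway outside MUSK were shared more widely. DOK7 measured 3.53 to 6.31 CPM in the ART-Normal livers, then 6.36 CPM for Control-AI 2 and 9.16 CPM for Control-AI 4, and its log2 difference between muscle and liver was 2.92 (SE 0.22). HGFAC, a liver-secreted protease gene 12340 bp upstream of it on the same strand, had 3344 to 8556 reads in liver and 104 to 174 in muscle, and its part in the liver reads of DOK7 was not tested. LRP4, which also acts in Wnt signalling outside muscle, measured 21.6 to 27.6 CPM in the ART-Normal livers, then 41.4 CPM for Control-AI 2 and 26.3 CPM for Control-AI 4, and differed by 2.51 (SE 0.14). AGRN, a basement membrane proteoglycan of many tissues, was nearly as abundant in liver as in muscle. It measured 90.4 CPM, 104 CPM, 106 CPM and 127 CPM in the livers of ART-Normal 1 to 4, then 159 CPM for Control-AI 2 and 115 CPM for Control-AI 4. With TMM scaling over both tissues together, AGRN was higher in muscle than in liver in all 6 fetuses, by 1.19 to 1.75 times. The log2 difference was 0.41 (SE 0.11, adjusted p = 0.00496 in edgeR's test). In the Control-AI libraries alone the log2 difference of AGRN was 0.29 with an adjusted p of 0.339.

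CHRNE ran the other way. It measured 2.05 CPM, 3.09 CPM, 3.33 CPM and 3.61 CPM in the livers of ART-Normal 1 to 4, then 2.63 CPM for Control-AI 2 and 4.52 CPM for Control-AI 4. Every liver library therefore lay above every muscle library. With TMM scaling over both tissues together, the liver level within a fetus was 3.65 to 19.1 times the muscle level. Pooled over the 6 fetuses, liver exceeded muscle by 7.62 times, with an exact Poisson interval of 5.78 to 10.2 that covers counting error only and is narrower than the range over fetuses. The gene was below the filter in both tissues. Fitted without the filter its log2 difference, muscle over liver, was -2.81 (SE 0.35, adjusted p = 5.05e-06 in edgeR's test over 18749 genes).

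The surroundings of CHRNE bear on that reading. It overlaps C19H17orf107 on the opposite strand by 1127 bp, and that gene had 14 to 57 reads in liver and 0 to 5 in muscle. MINK1 lies 490 bp beyond it on the opposite strand, with 1416 to 3554 reads in liver and 791 to 1214 in muscle. GP1BA, a platelet receptor gene, lies 21967 bp away, also on the opposite strand, with 306 to 1176 reads in liver and 0 to 4 in muscle. The labels give a protocol that keeps strand, but Control-AI 2 had raised counts opposite abundant genes, and the strand setting of the counting is not given in the sources used here, so reads of overlapping transcripts could not be separated from those of CHRNE.

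**Figure D4:**
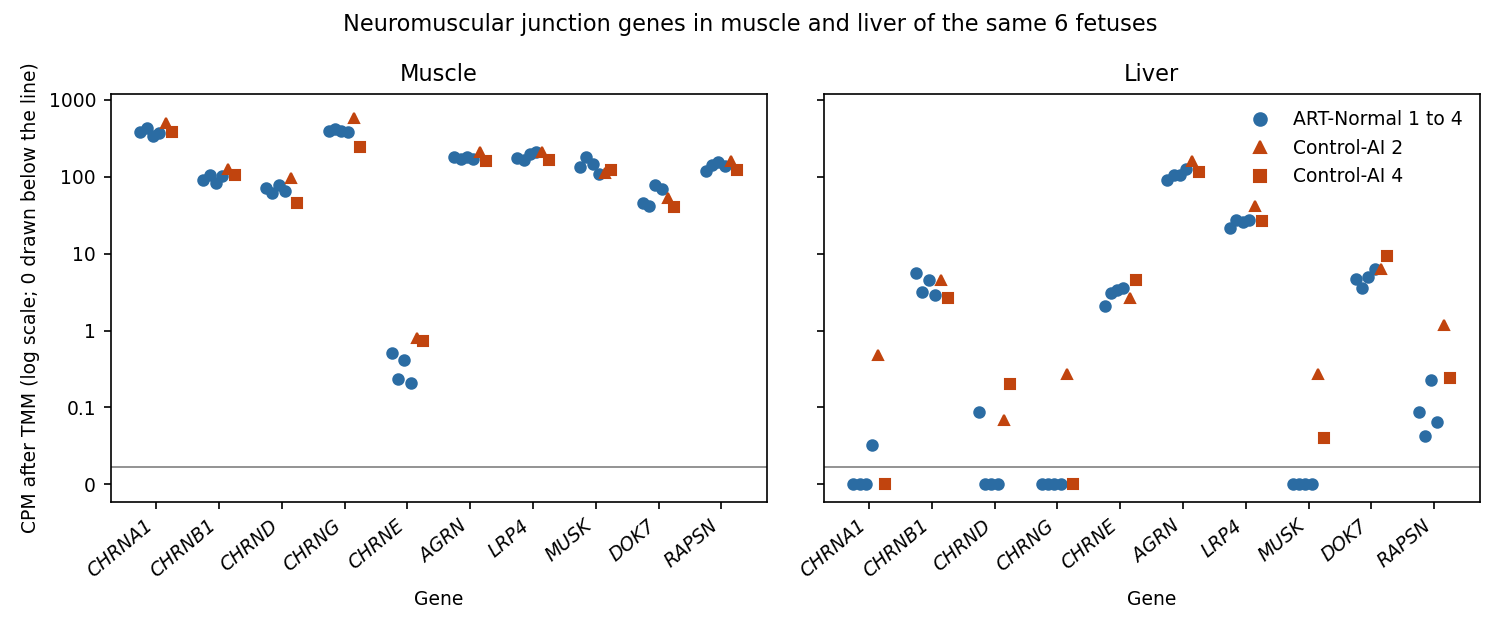
Level of the 10 genes in muscle (left) and liver (right) of the same 6 fetuses, in CPM after TMM scaling within each tissue on a shared log axis, with libraries at 0 drawn below the grey line. In liver AGRN lies at 90.4 to 159 CPM and LRP4 at 21.6 to 41.4 CPM, CHRNG and MUSK are at 0 in all 4 ART-Normal fetuses, and CHRNE lies higher than in muscle.

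Within liver, only LRP4 and AGRN passed the filter, and neither differed between ART-Normal and Control-AI beyond the spread. LRP4 gave a log2 fold change of -0.41 (SE 0.20) and AGRN one of -0.36 (SE 0.17), each with an adjusted p of 0.589, in a comparison in which edgeR called 0 of 11304 genes (0%) and 8.39% had an unadjusted p under 0.05. Library Control-AI 2 was the highest for both genes, and without it the value was -0.10 for AGRN and -0.04 for LRP4.

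Whether the ART-Normal effect differed between tissues was tested as an interaction. No member and no other gene passed in edgeR (0% of 12923), and 5.55% of all genes had an unadjusted p under 0.05. The members with such a p all entered this fit through muscle alone, so their number is not read against that share. They were MUSK with a log2 difference of effects of 5.01 (SE 1.42), CHRNA1 with 3.66 (SE 1.33), CHRND with 2.89 (SE 1.24), RAPSN with 2.60 (SE 0.72) and DOK7 with 1.01 (SE 0.41), with adjusted p from 0.661 to 0.874. For the first 4 the liver side rests on 0 to 17 reads a library, and Control-AI 2 held 4 of the 5 reads of MUSK, 7 of 8 of CHRNA1, 17 of 35 of RAPSN and 1 of 8 of CHRND. Without Control-AI 2 the values were 3.45 for MUSK, -1.43 for CHRNA1, 3.91 for CHRND, 1.49 for RAPSN and 1.43 for DOK7, all with adjusted p of 0.847 or more. The value for CHRNG fell from 4.40 to 0.71. Without Control-AI 4, CHRNA1 (4.84), CHRNG (5.27) and RAPSN (3.33) passed the adjusted threshold, in a fit whose sole control fetus is Control-AI 2 and whose spread comes from the ART-Normal fetuses. CHRNA1, MUSK and RAPSN also passed it under the likelihood ratio test, and RAPSN under DESeq2. These calls therefore depend on the library Control-AI 2 and on the test.

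Further genes of the junction were taken as lists by role. In muscle, none of the genes in these lists differed between ART-Normal and Control-AI past the adjusted threshold. The smallest p belonged to ERBB4, a neuregulin receptor kept at the muscle side of the synapse. ERBB4 measured 178 CPM, 174 CPM, 236 CPM and 162 CPM in ART-Normal 1 to 4, against 64.4 CPM for Control-AI 2 and 105 CPM for Control-AI 4. All ART-Normal fetuses lay above both controls, as for 8.76% of the genes tested, and the log2 fold change was 1.14 (SE 0.22, adjusted p = 0.275 in edgeR's test). Leaving out Control-AI 2 gave 0.81, and leaving out Control-AI 4 gave 1.56, where its adjusted p was 0.000212 and 1327 genes passed. In that last fit Control-AI 2 is the sole control and the spread comes from the ART-Normal fetuses. Levels of cell type markers are given for the same groups. All 4 connective tissue markers (COL1A1, COL3A1, DCN and LUM) were lower in every ART-Normal muscle, as were 7.22% of the genes tested. The summed levels of these 4 markers were 16317 to 18463 CPM, against 20945 CPM for Control-AI 2 and 20856 CPM for Control-AI 4. None of them passed the adjusted threshold, LUM having the largest difference of -0.53 (SE 0.16). Of the smooth muscle and vessel markers CNN1 also lay lower in every ART-Normal muscle, with -0.82 (SE 0.15, adjusted p = 0.245 in edgeR's test), and the summed levels overlapped. The 7 skeletal muscle markers had a median of -0.05, and 2 of them were positive. They ran from -0.53 (SE 0.20) for ACTA1, lower in every ART-Normal muscle, to 0.41 (SE 0.25) for MYH8. The part of these cell types in the group differences was not tested.

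The other lists gave smaller differences. PDZRN3, a ubiquitin ligase that acts on MUSK, had a log2 fold change of 0.58 (SE 0.18, adjusted p = 0.374 in edgeR's test). DTNB, the beta-dystrobrevin gene, gave 0.64 (SE 0.18) and COLQ, which anchors acetylcholinesterase in the synaptic matrix, gave 0.58 (SE 0.21), with adjusted p of 0.342 and 0.438. Leaving out Control-AI 2 gave 0.95 for COLQ, 0.45 for PDZRN3 and 0.52 for DTNB, and leaving out Control-AI 4 gave 0.29, 0.73 and 0.77. GMPPB, an enzyme of the glycosylation pathway, gave -0.44 (SE 0.25) over all libraries and 0.08 without Control-AI 2. Without Control-AI 4, PDZRN3 and GMPPB passed the threshold in edgeR's test, with adjusted p of 0.0495 and 0.0217 against Control-AI 2 as the sole control. CHRNA3 and SNAP25, from the neuronal receptor and nerve terminal lists, gave 0.05 (SE 0.25) and -0.06 (SE 0.29). The controls differed for both, with -0.08 and -0.49 without Control-AI 2 and 0.21 and 0.59 without Control-AI 4.

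Between tissues the lists are given by their counts, to be read beside the 39.9% of all genes higher and the 40.2% lower in muscle. No test compares the lists. Of the 12 synaptic matrix genes tested, 11 were higher in muscle and 1 lower, with LAMA2, a laminin chain of the muscle basement membrane, at a log2 difference of 6.82 and COLQ at 4.98. The gene lower in muscle was ACHE, which encodes acetylcholinesterase, with -3.07. Of the 8 postsynaptic cytoskeleton genes, 7 were higher in muscle, led by DES with 8.05 and DTNA with 4.67, and DTNB was lower with -0.90. Of the 20 partners of MUSK and rapsyn, 15 were higher and 2 lower in muscle. PDZRN3 (4.57) and the kinase FYN (3.42) had the largest positive differences, and DNAJA3 (-0.88) and CRKL (-0.53) were the lower ones.

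Of the 11 tested genes for neuregulin signalling and synaptic transcription, 7 were higher and 2 lower in muscle. MYOG, the myogenic factor myogenin, differed by 13.51 and ERBB4 by 4.00, while NRG1 (-0.67) and GABPA (-0.49) were lower. Of the 8 receptor assembly and glycosylation genes 1 was higher, TMX3 (1.26), and 4 were lower, beside 39.9% and 40.2% of all genes. RIC3, a receptor chaperone, differed by -3.36 and DPAGT1, the first enzyme of N-glycan assembly, by -1.74. Of the 11 neuronal nicotinic subunits only CHRNA3 passed the filter, with 3.43. Of the 6 motor nerve terminal genes VAMP1 (-2.76) and SNAP25 (-0.77) passed it, and both were lower in muscle. The median log2 difference was 2.25 for the synaptic matrix, 1.80 for the cytoskeleton, 0.79 for the MUSK and rapsyn partners, 0.79 for the neuregulin list and -0.65 for assembly, beside -0.01 over all genes.

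**Figure D5:**
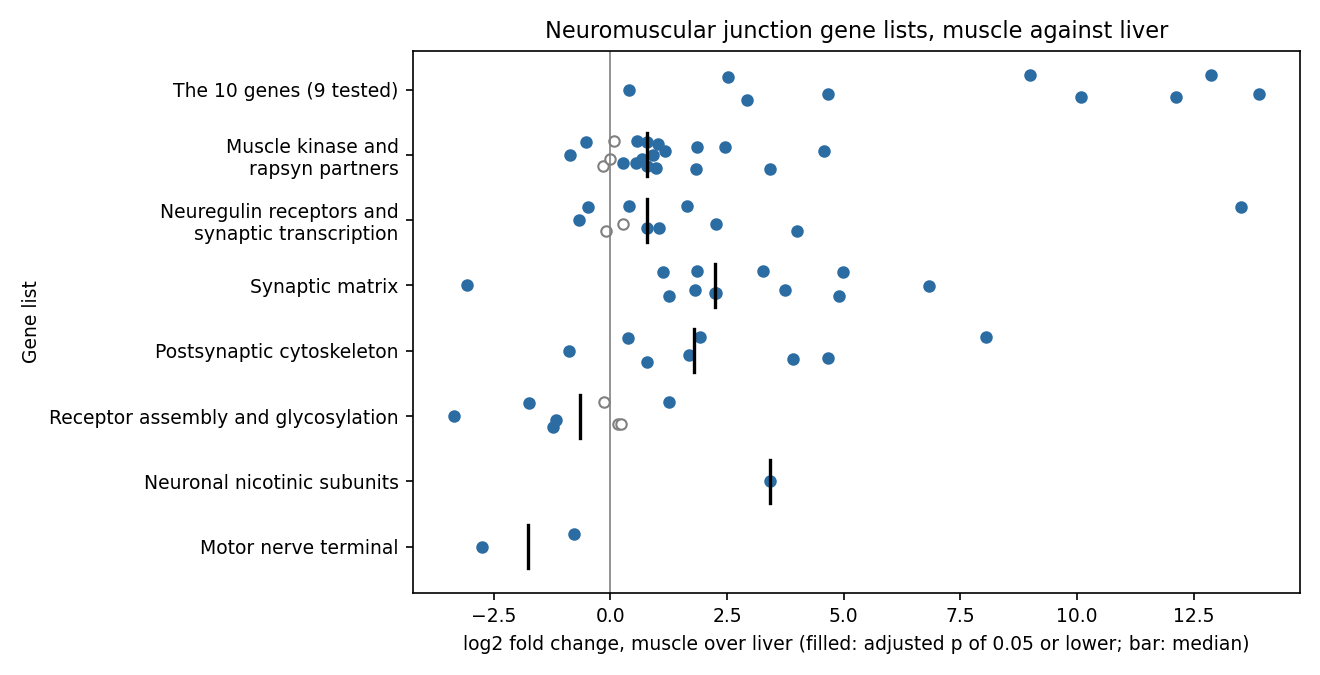
Log2 fold change of muscle over liver for each tested gene of the members and of 7 lists, with filled points for an adjusted p of 0.05 or lower, open points for the rest and a black bar at the median of each of the 7 lists. The members run from AGRN at 0.41 to CHRNG at 13.91, and the assembly and nerve terminal lists have medians below 0.

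As a description, the genes whose levels followed CHRNG most closely over the 6 muscle libraries were sought among 11694 others. SIAH2 (r = 0.99), JADE1 (r = 0.98) and TRIM52 (r = 0.98) ranked first on log2 CPM. Among the members CHRND (r = 0.91) and AGRN (r = 0.85) were highest, and MUSK (r = -0.02) was lowest. The 6 points share their libraries, and the controls are the highest and lowest of them for CHRNG. In all, 81 genes reached r of 0.9 or more.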

How the data were processed

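The deposited tables held raw read counts per gene for muscle and liver. According to the submitters' processing notes, HISAT2 2.1.0, SAMtools and featureCounts were among the tools and ARS-UCD1.2 was the build. The strand setting of the counting and the handling of reads shared by overlapping genes are not given in the sources used here. In each tissue 6 count columns matched the labels and 7 did not and were left out. The authors' comparison tables (fold changes and p-values) were not used.

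Counts were analysed with edgeR 4.0.16 in R 4.3.3: a filter keeping genes that reached 5 CPM throughout a group, TMM scaling, the quasi-likelihood F-test and Benjamini-Hochberg adjustment over all genes tested, with 0.05 as the threshold. Each tissue was fitted alone for ART-Normal against Control-AI, and 12 libraries together for tissue and interaction. The gamma to epsilon ratio was tested by exact permutation. Scripts were tested on simulated data. Alternatives covered scaling, filter, test (likelihood ratio, DESeq2 1.42.0), replicate block and omission of each library. The members and lists were chosen with earlier results of these data known. All 10 members were named, as were, for each list, the gene with the smallest p in muscle, up to 2 rises and 2 falls between tissues, and the 3 genes most like CHRNG. Muscle and liver carry the same fetal identifiers in the labels, and deviations from group means over 10076 genes correlated within a fetus at 0.449, 0.088, 0.086 and 0.567 in ART-Normal 1 to 4 and at 0.683 in the controls, where 2 fetuses give mirrored deviations and so 1 value. The pairing by fetus rests on the identifiers.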

Additional observations from a re-analysis of the deposited data

Results flagged for a closer look

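In muscle, CHRNG in ART-Normal 2 measured 420 CPM (420.2), which set it apart from the other 3 ART-Normal fetuses at 384 to 390 CPM. Its gap to the nearest of them was 0.83 of the group's range, just past the limit for a sample far from the others in a group of 4. Such a limit is passed by chance in about 1 in 20 groups, and 15 groups of 4 were examined. The 4 fetuses lie so close together that the value is still within the span of the controls.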

How the results depend on the processing

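Among the members, no comparison of ART-Normal with Control-AI in muscle or liver passed the threshold under any alternative run, and all 9 stayed higher in muscle than in liver, except that AGRN was not past the threshold in Control-AI libraries alone (adjusted p = 0.339). Signs of estimates near 0 did change in muscle. LRP4 was -0.0017 with library size alone, -0.02 without ART-Normal 3, -0.04 without ART-Normal 4, and from -0.13 without Control-AI 4 to 0.18 without Control-AI 2 over the omissions. RAPSN was 0.04 without ART-Normal 1 and ran from -0.20 without Control-AI 4 to 0.19 without Control-AI 2. CHRND was 0.03 without ART-Normal 2, 0.0050 without ART-Normal 4, and ran from -0.45 without Control-AI 4 to 0.59 without Control-AI 2. CHRNG ran from -0.51 without Control-AI 4 to 0.71 without Control-AI 2, and AGRN from -0.26 to 0.10 in the same order. The interaction of CHRNA1 ran from -1.43 without Control-AI 2 to 5.01 without ART-Normal 4. With the replicate block on the shared numbers CHRNG was 0.13 and RAPSN 0.011. Those numbers name different fetuses in the groups (correlations of -0.06 and -0.22 in muscle), and the block moved the count of genes past the threshold from 1 to 90 in muscle and from 0 to 6 in liver. The replicate block on fetus changed no call of a member between tissues. The count over all genes in muscle was 120 with the likelihood ratio test, 106 with DESeq2, 0 with both tissues in 1 fit, and 0 to 1327 with each library left out, 1327 without Control-AI 4 and 5 without Control-AI 2, each with 1 control left and the spread taken from ART-Normal. In liver it was 8 with library size alone, 89 with the likelihood ratio test, 56 with DESeq2, 4 with both tissues in 1 fit, and 0 to 830 with each library left out. For the interaction it was 98, 37 and 0 to 232 in the same order of tests. The cause of these shifts was not tested. The share of CHRNG in CHRNG and CHRNE reads stayed between 99.862% and 99.901% with each library left out, an alternative chosen after seeing the data. With 2 controls, 1 of them apart from all other libraries, and 4 to 17 CHRNE reads a muscle library, neither small changes of the members nor the level of CHRNE could be resolved.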
